A study of Caenorhabditis elegans with 2 samples.

Results

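The peaks described here lie between the starts of 2 protein-coding genes that are transcribed away from each other in the genome of Caenorhabditis elegans. A peak was counted where its summit had the 5′ end of a minus-strand protein-coding transcript within 500 bp on its left and that of a plus-strand protein-coding transcript within 500 bp on its right. A peak was left out where a tRNA, snRNA, snoRNA, SL RNA (sls-) or SmY RNA (smy-) gene started within 500 bp of the summit. This gave 354 members of 2319 peaks on the nuclear chromosomes (15.3%), or of 2347 peaks in all. The other nuclear peaks were 853 with protein-coding starts on 1 side or in 1 direction only, 258 with a small RNA start within 500 bp, and 854 with no protein-coding or small RNA start that near. No measured value of a peak other than its position entered the choice.

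SNPC-4 was mapped by chromatin immunoprecipitation and sequencing in whole L1 larvae, the first larval stage, of strain OP179, which carries the unc-119(ed3) mutation on chromosome III and the transgene insertion wgIs179 for eGFP-tagged snpc-4. Animals were a pool of both sexes, and what drives the transgene is not stated in the labels. There were 2 biological replicates in 1 group, so no condition could be compared, and no control list was analysed here. The signal of a peak is the authors' enrichment value, on a scale not given in the sources used here. Peaks are compared by it only within a list. Values of the 2 replicates are set side by side as a description, and whether their scales agree is unknown. Read numbers are not given either, so depth is unknown.

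SNPC-4 is the worm member of the small nuclear RNA activating protein complex, which binds an element upstream of snRNA genes and recruits RNA polymerase II or III to them. In C. elegans the factor is also known at SL RNA genes, which supply the leader that is spliced onto the 5′ ends of many mRNAs, and at piRNA clusters. Divergent promoters are stretches from which a gene is transcribed on each strand, and the compact worm genome holds many of them. Because of trans-splicing, the annotated 5′ end of a worm mRNA is often the splice site and not the base at which transcription began, so distances below are to annotated ends.

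The 2 highest members show how different the summits were in sequence. The lines give 101 bases around each summit in build ce11 (WBcel235), plus strand, with the summit base in capitals. The stretch of rpl-15, a protein of the large cytosolic ribosomal subunit, and K11H12.8 is IV:654880-654980, and that of cng-1, a gene with a cyclic nucleotide-binding domain, and F14H8.8, annotated as neuropeptide-like, is V:15029086-15029186.
rpl-15/K11H12.8: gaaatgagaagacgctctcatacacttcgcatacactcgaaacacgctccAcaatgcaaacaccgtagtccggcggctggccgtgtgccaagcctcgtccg
cng-1/F14H8.8: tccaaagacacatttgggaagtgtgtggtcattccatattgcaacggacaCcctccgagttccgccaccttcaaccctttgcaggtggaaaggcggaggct

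A matrix of the upstream element was built from 121 sequences just upstream of snRNA, SL RNA and snoRNA genes. Only genes with a summit of this same list in that stretch were used, so the matrix is drawn from these data. Its best match near each summit is in capitals in the next lines, with 10 bases on each side, read on the strand of the match. The sites of 4 high members are V:15029126-15029165 (minus strand) at cng-1/F14H8.8, IV:1094311-1094350 (minus strand) at cct-8/Y55F3AR.2, V:7060520-7060559 (minus strand) at Y57E12AL.6/Y57E12AL.1 and II:10868919-10868958 (minus strand) at gmps-1/cap-2. For comparison, 2 peaks outside the set are shown, at a copy of the snRNA gene that Ensembl names R07E5.16 (WBGene00014543, III:10989593-10989632, plus strand) and at the snoRNA gene Y53F4B.47 (II:15025950-15025989, minus strand).
cng-1/F14H8.8: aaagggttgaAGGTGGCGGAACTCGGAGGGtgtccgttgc
cct-8/Y55F3AR.2: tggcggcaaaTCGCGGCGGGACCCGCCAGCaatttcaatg
Y57E12AL.6/Y57E12AL.1: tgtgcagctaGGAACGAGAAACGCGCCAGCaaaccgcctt
gmps-1/cap-2: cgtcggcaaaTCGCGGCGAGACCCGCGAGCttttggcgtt
R07E5.16: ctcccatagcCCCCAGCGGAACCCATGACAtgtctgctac
Y53F4B.47: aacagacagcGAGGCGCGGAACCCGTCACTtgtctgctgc

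Short words were also shared by many members, and some overlap the matrix matches. The next lines give 3 sites for each of 4 such words, 30 bases with the word in capitals, at high members that hold it. The word GCAAACAC is shown at IV:654924-654953 (plus strand), III:7973399-7973428 (minus strand) and IV:6790583-6790612 (plus strand).
rpl-15/K11H12.8: cgctccacaatGCAAACACcgtagtccggc
eef-1B.1/aco-2: gcctccggtcaGCAAACACgccattgaatg
C17H12.2/vha-8: gcaaactaaatGCAAACACgctctatagac
The word GGTCTCGC, the reverse complement of GCGAGACC, is shown at III:8447153-8447182 (minus strand), II:10868925-10868954 (plus strand) and V:15002270-15002299 (minus strand).
hsp-110/rpn-3: aattttacatgGGTCTCGCaacgatgtact
gmps-1/cap-2: aaaagctcgcgGGTCTCGCcgcgatttgcc
fib-1/mut-15: tccactgtgcaGGTCTCGCagcgattgcca
The word TGGAGCGC, the reverse complement of GCGCTCCA, is shown at III:11007902-11007931 (minus strand), IV:13240704-13240733 (plus strand) and III:2786003-2786032 (minus strand).
fipr-17/Y48A6B.3: gaaatgtgcagTGGAGCGCgttcgcccaca
rpl-12/lin-54: aacattaactgTGGAGCGCacttgcattat
Y71H2AM.20/cox-6B: gggttttgcgtTGGAGCGCacttgctgcat
The word CGAGAGGA is shown at III:10848982-10849011 (plus strand), IV:10483919-10483948 (minus strand) and III:11290704-11290733 (plus strand).
fbxb-85/hex-3: tttcgcttatcCGAGAGGAgtacgcagtga
F01D4.5/ced-5: aactgtttatcCGAGAGGAgtccacaaacc
mib-1/smc-3: atatccttgtcCGAGAGGAgtacacaccgg

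Summits lay towards the middle of the stretch between the starts, and similar numbers were nearer to the plus-strand and to the minus-strand start. The gap between the 2 starts had a median of 396.5 bp and ranged from 15 to 901 bp over the 354 members. The nearer start was a median of 133.5 bp from the summit and the farther start 266 bp. The summit was nearer to the plus-strand start in 186 members and nearer to the minus-strand start in 167, with 1 tie, a share of 52.7% for the plus strand (exact 95% interval 47.3% to 58.0%). The excess over equal numbers did not pass the test (exact two-sided binomial test over peaks, adjusted p = 0.338 over 2 tests), and the interval allows an unevenness of several percentage points in either direction. Which gene of a pair is on the plus strand is set by the direction in which the chromosome is read. The count therefore cannot show whether summits favour 1 kind of gene.

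In the 248 members whose starts were at most 500 bp apart, 158 summits (63.7%, interval 57.4% to 69.7%) fell in the central 50% of the gap, from 25% to 75% of the way. The share was above 50% (exact two-sided binomial test, adjusted p = 3.74e-05). The share was 67.4% with the summit of replicate 1 (163 of 242) and 63.3% with that of replicate 2 (155 of 245). Among members with both starts within 250 bp of the summit and a gap of at most 250 bp, 34 of 65 summits (52.3%) were central, which did not pass the exact binomial test (adjusted p = 0.809). These tests run over peaks of 1 combined list and not over animals. With the gap cut into 5 equal sections from the minus-strand start, the shares were 10.5%, 23.4%, 29.0%, 22.2% and 14.9%, so the sections at the ends held the fewest summits.

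**Figure D1:**
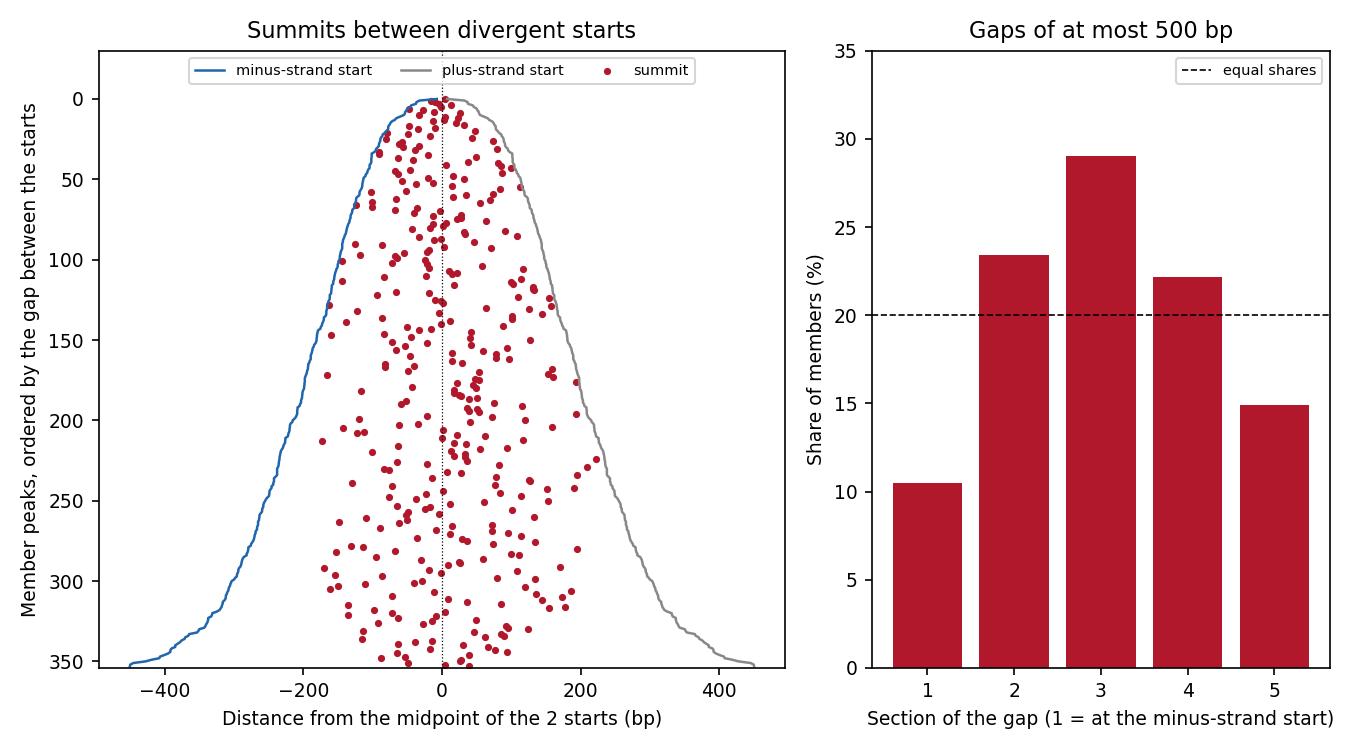
Left, each of the 354 members is a row ordered by its gap, with the minus-strand start, the plus-strand start and the summit placed by their distance in bp from the midpoint of the starts. Right, the share of the 248 members with gaps of at most 500 bp in each of 5 equal sections of the gap, where the middle section held 29.0% and the dashed line marks equal shares of 20%.

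The distance of the summit from the midpoint changed less than the gap did. Over all members the summit was a median of 58 bp from the midpoint of the starts (quartiles 25.6 and 98.8 bp). In the 34 members with gaps of at most 200 bp this median was 32.2 bp, in the 79 members with gaps of 301 to 400 bp it was 64 bp, and in the 54 with gaps over 600 bp it was 69.2 bp. In the longest gaps the rule itself keeps the summit off the starts. The error of a summit, taken as the distance between the summits of the 2 replicates, was a median of 20 bp (quartiles 10 and 38.8 bp, 338 members). The summit was farther from the midpoint than this distance in 258 of the 338, and it was nearer to the same start in both replicates in 301 (89.1%).

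A peak between 2 starts cannot be assigned to 1 gene from its position alone. The interval of the peak covered both starts in 63 members, 1 start in 148 and no start in 143. In 289 members the interval had the same width of 344 bp, so these counts largely restate the distances from summit to start. The summit lay in no annotated gene in 298 members, within a protein-coding gene in 27 and only within non-coding genes in 29. In 44 members a non-coding gene other than the excluded classes started between the protein-coding starts. In 41 of these the annotated class was ncRNA.

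The extremes of the gap show the range of arrangements. The shortest was 15 bp, between F25H9.6 and F25H9.7, a succinate dehydrogenase assembly factor by its RefSeq name, with a signal of 83.2 and replicate values of 50.2 and 36.5. It was followed by F32D8.14 and F32D8.5 at 65 bp (signal 54.1) and by trm-1, a tRNA methyltransferase, and ints-2, an Integrator subunit, at 74 bp (signal 57.1). At these 3 members the peak interval extended over both starts, as an interval of the common width of 344 bp must at such short gaps. The longest gaps were 901 bp between rtfo-1, an RTF1 homologue, and K09G1.1 (signal 46.5), 900 bp between sqv-3, a galactosyltransferase, and the proton pump gene vha-1 (signal 49.1), and 891 bp between the kinase gene pak-2 and C45B11.9 (signal 45.9).

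At the limit of the rule, fbxl-3 and the splicing helicase gene mog-5 were just inside, with starts 496 and 140 bp from the summit and a signal of 34.3. The release factor gene erfa-3 and math-33, a USP7 homologue, were also just inside, with starts 320 and 496 bp away and a signal of 53.5. Just outside were Y47D3A.1 and pola-1, a DNA polymerase gene, with starts 504 and 103 bp away (signal 59.0), and F25B5.6 and F25B5.3, with starts 234 and 506 bp away (signal 34.5). The signals of peaks on the 2 sides of the limit overlapped.

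Most members had a signal of moderate size, and the very highest peaks of the list were elsewhere. Member signals ranged from 32.4 to 465 with a median of 56.5 (quartiles 42.9 and 85.9), against a median of 53.1 in the 853 single-direction promoter peaks, 62.3 in the 258 small RNA peaks and 53.0 in all nuclear peaks. Above the nuclear median were 196 members (55.4%), against 427 of the single-direction peaks (50.1%). The highest member ranked 66, 3 members were among the 100 highest nuclear peaks and 81 were at ranks 101 to 500, while 60 small RNA peaks were among the 100 highest. Members held 8.92% of the summed nuclear signal and small RNA peaks 43.7%. In whole larvae, a lower signal from fewer bound cells and from less binding in each cell cannot be told apart.

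The pair rpl-15 (WBGene00004427) and K11H12.8 (WBGene00019664, annotated as a growth hormone-inducible transmembrane protein) had the highest signal, 465, with 193 in replicate 1 and 269 in replicate 2. Its summit, 354 bp from rpl-15 and 460 bp from K11H12.8, was also 569 bp from the snoRNA gene K11H12.13, just beyond the limit for small RNA starts. The pair cng-1 (WBGene00000562) and F14H8.8 (WBGene00077582) had 455, with 181 and 276 in the replicates, and its nearest small RNA start was 16030 bp away. These 2 stood apart from the rest of the members.

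In that next member, rpl-20, of the large ribosomal subunit, faced Y17G9B.5, the mitochondrial ECSIT homologue, with a signal of 237 and replicate values of 115 and 125. Of the other members among the 12 highest, the nucleoside diphosphate kinase gene ndk-1 and F25H2.6 had 229, and their replicate values were 99.5 and 131. The pair of nlp-4 and the exosome subunit gene exos-3 had 228 (99.9 and 129), with the snoRNA gene F59C6.15 973 bp from the summit. T26A8.4 and pdtf-1, whose starts were only 145 bp apart, had 226 (77.9 and 148). All 4 of these members had higher values in replicate 2, as did the median of all nuclear peaks (25.3 in replicate 1 and 31.0 in replicate 2).

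The small subunit gene rps-19 and hsr-9, a relative of human 53BP1, had 220, with 103 and 117 in the replicates. W04D2.4 and rbm-25, an RNA-binding splicing protein by its domains, had 205 (72.8 and 133). The pair gpap-1 and scpr-1 had 198 (88.1 and 107), and the summit lay 203 and 173 bp from their starts. The paracaspase gene malt-1 and ceh-38, a one cut homeobox gene, had 195 (78.8 and 118), and the summit was 26 bp from the ceh-38 start. Last of the 12 came ify-1, the securin of the worm, with rpl-22 at 193 (98.5 and 95.2), and rps-20 with ekl-4, a DMAP1 homologue, at 174 (85.9 and 92.2). A cytosolic ribosomal protein gene was thus on 1 side only in 5 of the 12, which were picked by signal, against 22 of all 354 members.

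Members came from a list that the authors derived from agreement between these replicates, so their presence in both relaxed replicate lists was largely fixed by that choice and is a description. A summit lay within 100 bp in both replicate lists for 338 members (95.5%), only in replicate 1 for 6 and only in replicate 2 for 10. The same held for 799 of 853 single-direction peaks (93.7%) and 2159 of all 2319 nuclear peaks (93.1%). Among the 2347 highest peaks of each replicate, 247 members were in both. Member signals ranged from 5.14 to 193 in replicate 1 (median 27.7) and from 5.35 to 276 in replicate 2 (median 31.8), and 223 of 338 were higher in replicate 2. Over all nuclear peaks the medians were 25.3 and 31.0, so higher values in replicate 2 were not particular to members. The rank correlation of member signals between the replicates was 0.596 (Spearman, 338 peaks of 2 libraries, as a description). The member of arf-6, a small GTPase gene, had 5.14 in replicate 1 and 57.8 in replicate 2, so the replicates disagreed also at a member above the median (combined signal 75.4).

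**Figure D2:**
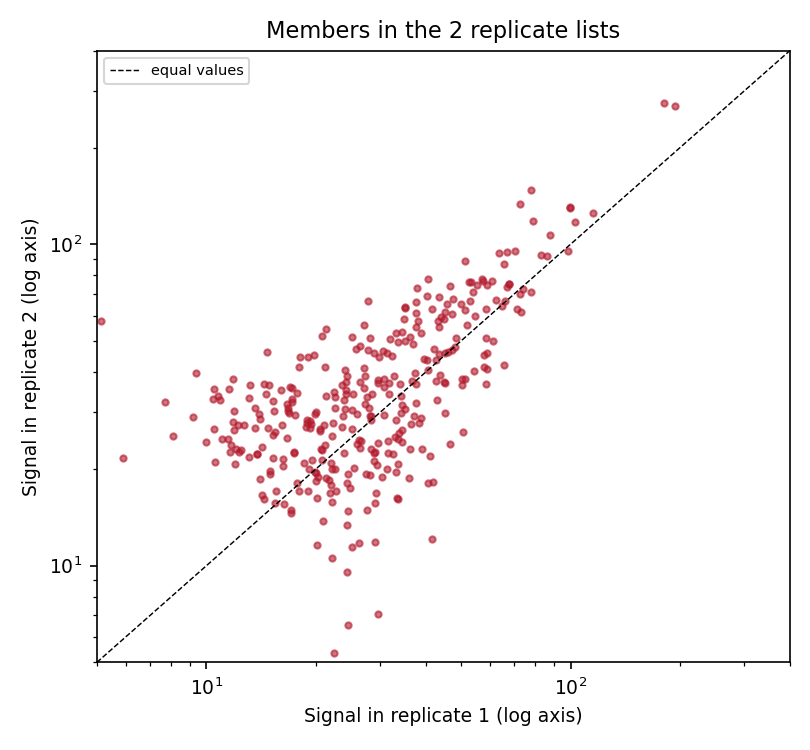
Signal of each of the 338 members found in both replicate lists, replicate 1 on the horizontal and replicate 2 on the vertical axis, both logarithmic, with a dashed line of equal values. The 2 points at the upper right are rpl-15/K11H12.8 (193 and 269) and cng-1/F14H8.8 (181 and 276), and the spread widens towards low signals.

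Set against all places where a member could arise, fewer than 1 in 4 divergent pairs had a summit. The genome held 1847 neighbouring divergent pairs of protein-coding genes with starts at most 1000 bp apart and no small RNA start within 500 bp of the midpoint, and 417 of them (22.6%, interval 20.7% to 24.6%) had a summit of the thresholded list between the starts. A further 407 had only a peak under the threshold, and 1023 had neither. Of the 417, 75 were not the pair of a member. Their summit can lie more than 500 bp from a start or within 500 bp of a small RNA start, and these reasons were not counted apart. The pairs of 12 members were not among these neighbouring pairs.

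Pairs with gaps of middle length had a summit most often. The share was 11.9% of 277 pairs with gaps of at most 200 bp (interval 8.34% to 16.3%), 24.5% at 201 to 300 bp and 32.9% of 222 pairs at 301 to 400 bp (26.7% to 39.5%). It was 32.0% at 401 to 500 bp, 23.7% at 501 to 600 bp and 19.5% of 647 pairs above that (16.5% to 22.7%). The interval of the shortest gaps overlapped that of no other group. A shorter gap also offers fewer positions for a summit, and the part of this in the low share was not tested.

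**Figure D3:**
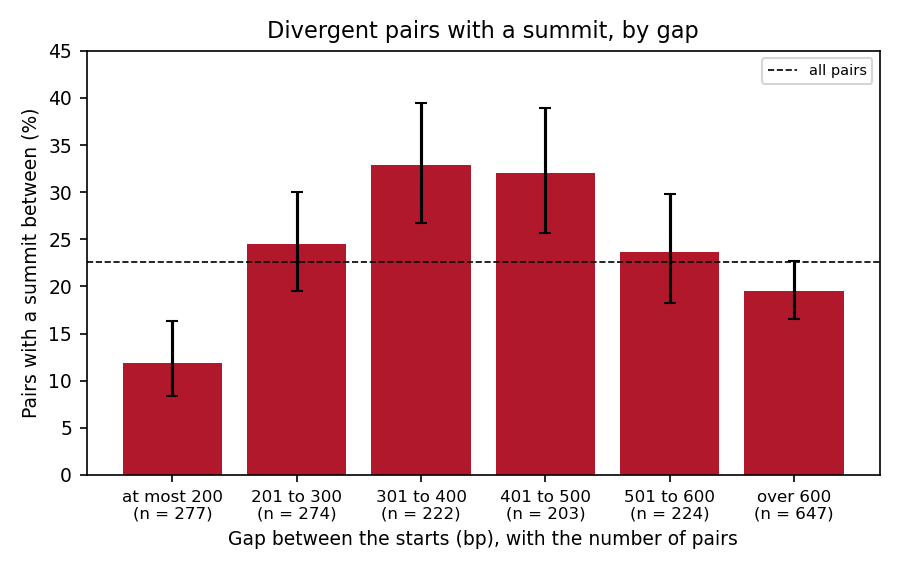
Share of divergent pairs with a summit between the starts, in percent, by gap between the starts in bp, with the number of pairs under each bar and exact 95% binomial intervals. The share is 11.9% for gaps of at most 200 bp and 32.9% for 301 to 400 bp, and the dashed line marks 22.6% for all pairs.

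Chromosomes differed in the number of members and in the share of pairs with a summit. Chromosome I had 82 members, III 81, V 68, IV 59, II 53 and X 11. The X chromosome held 83 of the 1847 pairs, and 14 of these (16.9%, interval 9.54% to 26.7%) had a summit, against 95 of 310 (30.6%, 25.6% to 36.1%) on III and 100 of 342 (29.2%, 24.5% to 34.4%) on I. On II the share was 18.0%, on V 17.7% and on IV 20.7%. The interval of X overlapped that of every autosome.

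The 354 members named 708 genes, none of them in more than 1 member. Among the 3660 genes at divergent pairs, 834 (22.8%) were at a pair with a summit, and each of 12 lists made by gene name was read against that share. In 115 members at least 1 gene was in a list. The lists were chosen with earlier results of these data known, so their counts are descriptions. No interval was computed for them, and the shares of small lists carry a wide counting error. A peak between 2 starts counts for both genes.

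**Figure D4:**
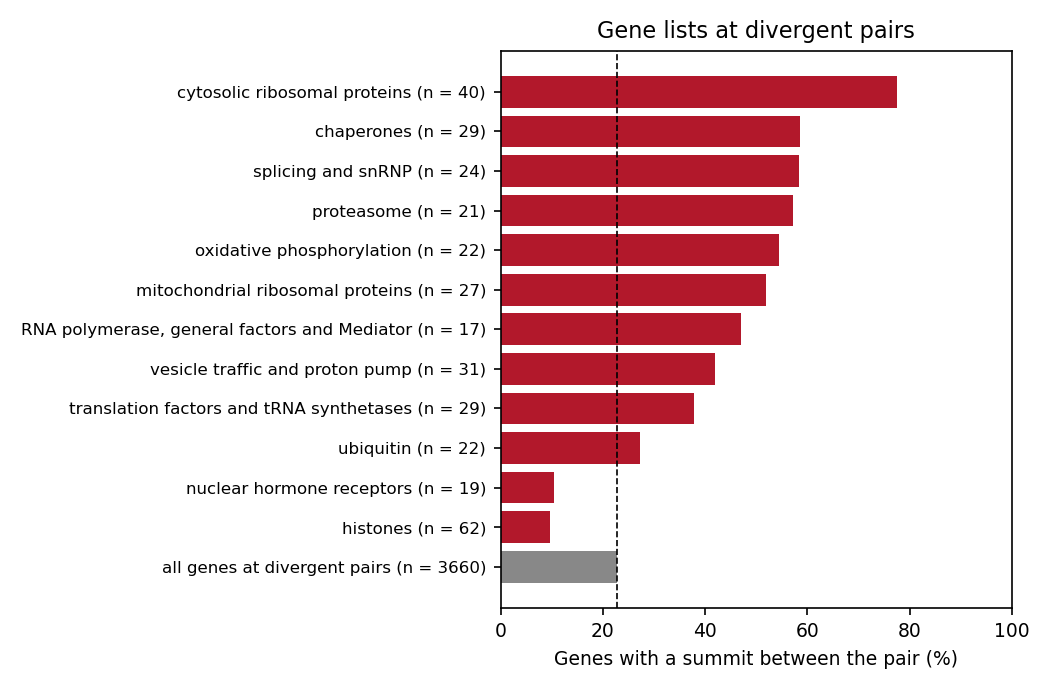
Share, in percent, of the genes of each list at divergent pairs that had a summit between the pair, with the number of such genes in brackets, and all 3660 genes at divergent pairs at the bottom (22.8%, dashed line). Cytosolic ribosomal proteins are at 77.5% and histones at 9.68%.

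Cytosolic ribosomal protein genes had the highest share. Of 40 at divergent pairs, 31 (77.5%) had a summit between the pair, and 26 were at members, with signals of 34.1 to 465 and a median of 81.6. After those already named, rpl-12 with lin-54, a DREAM complex gene, had 159 (63.7 and 93.8 in the replicates), and rpl-28 with the mitochondrial mrpl-49 had 136 (73.0 and 61.7). In the 22 members with a ribosomal protein gene on 1 side only, the summit was nearer to the ribosomal gene in 8, a median of 285 bp from it and 180 bp from its partner.

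Other genes of protein synthesis were also above the share of all genes. Mitochondrial ribosomal proteins had 14 of 27 (51.9%), with mrps-7 and the 6-phosphogluconolactonase gene Y57G11C.3 highest at 139 (51.2 and 88.8). Translation factors and tRNA synthetases had 11 of 29 (37.9%). Their highest member was eef-1A.1, the elongation factor that brings tRNA to the ribosome, with the replication factor gene rfc-4 at 174 (82.7 and 92.7). Its gap also holds the miRNA gene mir-5549, 12 bp from the summit. The translocase gene eef-2 had 126 and eef-1B.1, with the aconitase gene aco-2, had 112.

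Chaperone and proteasome genes had shares well above that of all genes, and ubiquitin genes did not. Chaperones had 17 of 29 (58.6%) and a member median of 76.8. At their head were cct-1, of the TRiC ring, with mig-5, a Dishevelled gene, at 151 (73.9 and 72.7), cct-8 at 141, and hsp-90 at 135. In 15 members with a chaperone on 1 side only, the summit was nearer to the chaperone in 3, a median of 315 bp from it and 193 bp from the partner. The proteasome had 12 of 21 (57.1%), with rpn-3 and the chaperone gene hsp-110 sharing a peak of 126 (64.9 in replicate 1 and 64.5 in replicate 2). Ubiquitin genes had 6 of 22 (27.3%), near the share of all genes, with usp-3 and rps-6 highest at 66.4 (18.1 and 44.5).

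Genes of RNA synthesis and processing were also above the share of all genes. Splicing and snRNP genes had 14 of 24 (58.3%). The SR protein genes rsp-1 and rsp-2, which bind exonic enhancers, faced each other across a peak of 98.7 (27.9 and 66.7). The RNA polymerase, general factor and Mediator list had 8 of 17 (47.1%), with low signals: its highest member was taf-11.3, a TFIID subunit gene, with urm-1, a ubiquitin-related modifier, at 66.4 (34.3 and 29.8).

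Energy and membrane traffic genes completed the higher lists. Oxidative phosphorylation had 12 of 22 (54.5%), led by cox-6B, of cytochrome c oxidase, with Y71H2AM.20 at 147 (78.0 and 70.8) and by atp-1, of the ATP synthase, at 134 (62.6 and 67.2). This list holds genes of chosen name prefixes and is not the whole pathway. The genes ndub-8, ndua-8 and mev-1, also at members, are not in it. Vesicle traffic and proton pump genes had 13 of 31 (41.9%), with rab-18, a lipid droplet GTPase, and the kinetochore gene kbp-4 at 127 (52.5 and 76.3) and vha-8 at 107.

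Histone genes were below the share of all genes, and the share of nuclear hormone receptor genes was lower too but rests on few genes. A count of 2 of 19 is too small to set the receptors apart from all genes. Of 19 receptors at divergent pairs, 2 (10.5%) had a summit, and the only member was nhr-47, which shares its peak of 91.1 (38.8 and 53.1) with the chaperone gene dnj-19 and starts 5 bp from the summit. Of 62 histone genes, 6 (9.68%) had a summit, in 3 pairs of histone genes facing each other: his-67 and his-68 at 51.7 (25.9 and 29.7), his-61 and his-62 at 40.3, and his-35 and his-41 at 35.9. Histone genes are repeated in the worm genome. Single-copy 31-base words were counted between the starts and in the 100 bp beyond each start, so parts of the genes are included. Their median share was 91.3% at the 3 histone pairs with a summit, against 0% at the 28 histone pairs without one and 100% over all pairs. The lowest share with a summit was 87.8% and the highest without one was 88.9%. The sources used here do not say how reads with several matches were treated, and the part of this in the low share was not tested.

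Over the lists together, 128 of 286 pairs with a list gene (44.8%) had a summit, against 289 of 1561 pairs with none (18.5%). Of the 61 pairs with list genes on both sides, 18 had a summit (29.5%), and 31 of these 61 were histone pairs. By list, the summit was nearer to the list gene in 9 of 12 members for the proteasome (medians of 206 bp to the list gene and 254.5 bp to the partner) and in 5 of 7 for the RNA polymerase list (107 and 166 bp), unlike the ribosomal and chaperone counts above. In all 98 members with a list gene on 1 side only, the summit was nearer to the list gene in 44, at a median of 241.5 bp from it and 175.5 bp from the partner.

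In sequence, members differed from their flanks in words and in base composition. The flank centres, 500 bp from the summit, lay beyond the annotated starts, which were at most 496 bp from it. The matrix of the upstream element of snRNA and SL RNA genes, scored at the 99th percentile of 4638 flank windows (those of the members among them), matched within 50 bp of the summit in 39 of 354 members (11.0%, interval 7.95% to 14.8%). It matched in 4 left and 7 right flanks of members, taken 500 bp away, a share that the threshold itself sets near 1%, and in 10.9% of single-direction peaks, 34.5% of small RNA peaks and 1.10% of 1369 midpoints of pairs with no summit. Many small RNA peaks lie at the sequences the matrix was built from, so their share is no independent value. Of those 121 sequences, 78 held a match at this threshold. The word CGGAACCC at its core was found in 1 of 354 members (0.282%) and in 34 of 258 small RNA peaks (13.2%). Members with a matrix match had a median signal of 64.5 and those without 54.1.

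Of the 39 matches, 20 overlapped one of 8 words that recur among the members themselves, as at gmps-1/cap-2, where the match in capitals above and the word GGTCTCGC are the same bases read on opposite strands. For 7 matches this was GCGAGACC or CGAGACCC and for 8 it was AAACGCGC, the word seen in the match at Y57E12AL.6/Y57E12AL.1. The other 19 overlapped none of the words. A match is a run of letters and not a measured binding site.

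The 8 words were chosen, after their values had been seen, as frequent at members of chromosomes I, III and V and rare in the flanks there, and they are read here on II, IV and X. They are GCAAACAC, GCGAGACC, GCGCTCCA, AAGTGCGC, CGAGACCC, AAACGCGC, CGAGAGGA and ACTCCTCT, on either strand. Several of them overlap each other at the same sites, so they are fewer than 8 separate elements. Over all chromosomes GCGAGACC and CGAGACCC overlapped at 25 members, CGAGAGGA and ACTCCTCT at 19, GCGCTCCA and AAGTGCGC at 11, and GCGCTCCA and AAACGCGC at 5. On II, IV and X, 49 of 123 members (39.8%, interval 31.1% to 49.1%) held at least 1 word within 50 bp of the summit, against 0 of 123 left flanks (interval up to 2.95%) and 1 of 123 right flanks. Single-direction peaks there held 1 in 34.0% (29.4% to 38.9%), small RNA peaks in 7.19% and midpoints of pairs with no summit in 5.75%. The intervals of members and single-direction peaks overlapped, so the words were not particular to divergent pairs.

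**Figure D5:**
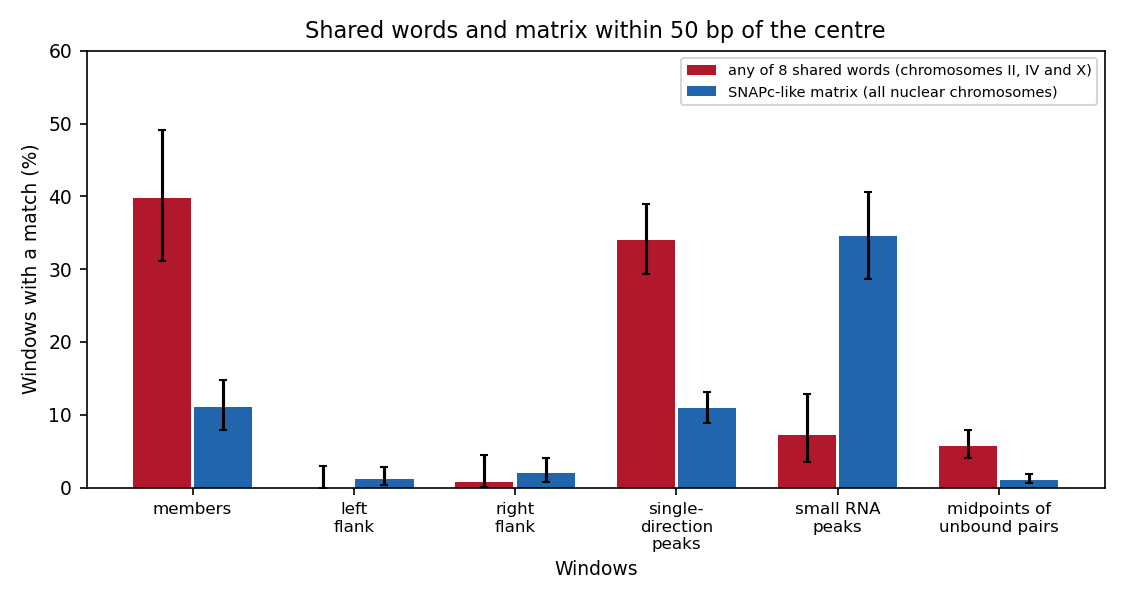
Share of windows, in percent with exact 95% binomial intervals, that hold any of the 8 shared words (chromosomes II, IV and X) or a matrix match (all nuclear chromosomes) within 50 bp of the summit or window centre. Members stand at 39.8% for the words and 11.0% for the matrix, small RNA peaks at 7.19% and 34.5%.

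The words differed in place. Over all chromosomes GCAAACAC was at 39 members (11.0%), at a median of 14.5 bp from the summit, and GCGAGACC was at 34 members (9.60%), at 13.5 bp. CGAGAGGA was at 22 members (6.21%), at 26.5 bp from the summit and 69.5 bp from the nearer start, whereas GCGAGACC was 175 bp from it. Any word was found at 164 of the 354 members (46.3%). Both a word and a matrix match were held by 28 members, a matrix match alone by 11 and neither by 179. These counts include chromosomes I, III and V, on which the words were chosen as frequent at these same members. On II, IV and X alone, CGAGAGGA was at 3 of 123 members (2.44%) and 5.29% of single-direction peaks. There GCGAGACC was at 8.94% of members and 4.03% of single-direction peaks, and GCAAACAC at 8.94% and 8.31%.

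Among the other motifs, searched on both strands, the Sp1-like CNCCGCCC was at 20 members (5.65%, interval 3.48% to 8.59%), against 2 left flanks, 2 right flanks and 1.68% of midpoints without a summit. It was at 4.45% of single-direction peaks (3.17% to 6.06%), an interval that overlapped that of members, so it was not particular to them. GAGAGA was at 54 members (15.3%, interval 11.7% to 19.4%), against 16 left and 12 right flanks and 7.67% of midpoints, and it was at 23.7% of single-direction peaks (20.9% to 26.7%), an interval that did not overlap that of members. TATAAA was at 21 members (5.93%), against 17 and 34 flanks, 14.2% of midpoints and 5.16% of single-direction peaks. TTTTTTTT was at 21 members (5.93%), against 20 and 22 flanks, 12.6% of midpoints and 4.34% of single-direction peaks. TTTCAG, the letters of a splice acceptor in worms, was at 29 members (8.19%), against 108 left and 98 right flanks. It was at 16.4% of midpoints without a summit and 6.33% of single-direction peaks. The E box CACGTG was at 7 members (1.98%), against 7 left and 12 right flanks and 4.92% of single-direction peaks. CTGTTTCA, a core found upstream of worm piRNA genes, was at 1 member, and the tRNA B box at 2.

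Members were richer in G and C than their surroundings. The 100 bp around member summits held 46.0% G and C, against 39.9% in the left and 39.6% in the right flanks, 47.1% at single-direction peaks and 33.9% at midpoints without a summit. Of the 8 words, 6 have more G and C than A and T, and the part of base composition in their counts was not tested. On the plus strand, A was 30.2% and T 24.2% of bases left of the summit, and A was 24.6% and T 29.2% right of it. Single-direction peaks had the same turn, with A at 27.8% and T at 25.1% left of the summit and A at 24.7% and T at 28.3% right of it.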

How the data were processed

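ChIP-seq of eGFP-tagged SNPC-4 in whole L1 larvae was read from the deposited peak lists on build ce11. Per the deposited notes, the authors made relaxed lists for each replicate and for the pool from alignments with a control alignment, and derived the thresholded list from them by the irreproducible discovery rate. Aligner, peak caller and read numbers were not given in the sources used here. The deposited signal is the authors' enrichment per peak, the −log10 q was deposited but not used to choose peaks, and the summit is the peak start plus the deposited distance. No column belonged to another sample.

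Genes and transcript 5′ ends came from Ensembl release 115 (WBcel235, the assembly of ce11), sequence and product names from RefSeq. Mitochondrial peaks were left out. Pairs, positions, words and the matrix were computed with Python 3.11.15, pandas 2.3.3 and scipy 1.17.1. Position was tested by exact binomial tests, adjusted by Benjamini-Hochberg over the 2 tests, and checked on planted summits. Intervals are exact (Clopper-Pearson) 95% intervals, which cover counting error over peaks or genes only. p-values measure peaks of these lists and not animals.

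Members, gene lists and motifs were chosen with earlier results of these data known. Named genes are those of the 12 highest members, the 3 shortest and 3 longest gaps, the 2 members inside and 2 peaks outside the limit, and the highest of each list. Other genes were named after their values were seen.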

Additional observations from a re-analysis of the deposited data

How the results depend on the processing

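No paired analysis was possible because the study has 1 group. With 1 replicate at a time, taking its 2347 highest peaks, members numbered 329 to 335, pairs with a summit 386 to 395, the share of summits nearer to the plus-strand start was 53.5% to 54.5% and the central share 63.4% to 68.1%, and the median member signal was 1.06 to 1.14 times that of all nuclear peaks, against 1.07 in the combined list. A limit of 250 bp left 155 members and 238 of 976 pairs, a plus-strand share of 48.7% and a central share of 52.3%. The upper 50% of the list by signal gave 196 members, 228 pairs and a plus-strand share of 48.5%. The side of the summit passed the test under none of these settings. A limit of 1000 bp gave 478 members and 532 of 2684 pairs, and outermost gene ends 327 members and 402 of 1728 pairs. In these 2 settings the plus-strand shares were 50.5% and 52.8%, which did not pass the test. The central shares were 62.4% and 64.3%, which did, and the signal ratios were 1.07 and 1.05. Gaps of every length were tried for the central share only and gave 252 of 354 (71.2%), but in long gaps the rule itself keeps the summit off the starts. Matches within 50 or 200 bp were tried for the replicate count only. They gave 298 and 346 of the 354 members, against 338 within 100 bp. Shares by list, gap length and chromosome and the shared words were not recomputed. Windows of 100 bp to each side raised TATAAA to 16.7%, GAGAGA to 22.9%, TTTTTTTT to 20.9% and TTTCAG to 27.1% of members, as wider windows hold more positions. Read depth is unknown, so signals have no counting error here, and only the 2 replicates show how far they vary.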

Other observations

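Peaks under the threshold between divergent starts are described here beside the members. In the pooled relaxed list, 342 of 27652 further nuclear peaks (1.24%) met the same rule, with a median gap of 427 bp. For gaps of at most 500 bp, 63.7% of member summits were in the central 50%, against 120 of 210 (57.1%, exact 95% interval 50.2% to 63.9%) of these lower peaks, and the difference was not tested.

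In 17 members both genes were in a list. Those named here were chosen after their values were seen: rps-14 and rpl-36 had 103 (44.8 and 58.6 in the replicates), rpl-39 and rps-30 had 64.1 (19.7 and 45.1), and the proteasome gene pas-4 and the polymerase subunit gene rpb-3 had 41.8 (24.3 and 18.1).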
